A study of Mus musculus with 76 samples.

Results

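The subunits of the mitochondrial oxidative phosphorylation complexes were followed across 24 groups of mouse blood-forming and thymic cells. Members were the genes whose symbol names a subunit of complex I (NADH dehydrogenase, Nduf symbols), complex II (succinate dehydrogenase, Sdh), complex III (cytochrome bc1, Uqcr), complex IV (cytochrome c oxidase, Cox4 to Cox8) or complex V (ATP synthase, Atp5), together with the subunits encoded in mitochondrial DNA (mt-Nd, mt-Co, mt-Cytb and mt-Atp). Assembly factors were not admitted, and 6 pseudogene copies among the 107 matching symbols were left out. This gave 101 genes of the 37980 in the table, of which 88 are nuclear and 13 are mitochondrially encoded. Complexes were assigned by symbol, so Ndufa4, whose protein is now placed in complex IV, stands under complex I. Cox7a2l, a supercomplex factor, and Atp5s, which is not a structural subunit of the enzyme, also met the symbol rule, whereas the acyl carrier Ndufab1 did not.

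Complexes I, III and IV pump protons across the inner mitochondrial membrane as electrons pass from NADH and succinate to oxygen, and complex V uses the returning protons to make ATP. Complex II is encoded wholly in the nucleus, while the other complexes each combine nuclear subunits, made in the cytosol and imported, with a few core subunits made on ribosomes inside the organelle. The mitochondrial messages come from long polycistronic transcripts of a small circular genome, unlike the nuclear messages. In blood formation, resting stem cells are known to rely little on respiration, and dividing thymocyte precursors rely on it more.

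RNA of 76 libraries was sequenced, each from 1000 sorted cells of C57BL/6 mice, and polyadenylated RNA was the labelled molecule. The 9 induced groups were made from pro-/pre-B cells infected with Hoxb5 virus outside the body, sorted for transduction and placed in sublethally irradiated hosts, which keep cells of their own. Induced cells were later sorted from host bone marrow (BM_iETPs, 2 libraries, labelled early T lineage progenitors) or host thymus: Thy_iETPs (3), the double negative stages iDN1 (4), iDN2 (2), iDN3 (3) and iDN4 (4), double positive iDP (3), and the single positive iCD4_SP (4) and iCD8_SP (4). The 15 natural groups, without the virus, were BM_ETPs (3), Thy_ETPs (2), DN1 (3), DN2 (3), DN3 (2), DN4 (3), DP (4), CD4_SP (3), CD8_SP (3), multipotent progenitors (MPP, 4), hematopoietic stem cells (HSC, 4), mature_B (4), Pro-_Pre-B (3), mature_T (3) and mature_myeloid (2). The labels do not say which libraries of a group came from separate animals, so the p-values measure the spread between libraries, which may be technical.

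Values are FPKM as deposited, which are fragments scaled to transcript length and to a library size. How the library sizes were set is not given. Total FPKM ran from 667660 to 2004010 over the libraries, and 9828 to 12202 genes reached 1 FPKM. The smallest steps between low values put the depth at 0.977 to 12.3 fragments per FPKM and kilobase, with a median of 4.25. The 2 mature_myeloid libraries were the shallowest, at 0.987 and 0.977. Their total FPKM differed, at 2004010 and 1108530, and the first was the highest of all libraries. Extremes found in mature_myeloid below rest on these 2 libraries. Replicates 1 and 3 of Pro-_Pre-B were identical in all 37980 rows and were counted as 1 sample. Marker lists went against the label in some groups. Summed markers of the B lineage stood at 7836 FPKM in BM_iETPs, near the 8347 FPKM of Pro-_Pre-B, while T lineage markers summed to 46.4 FPKM. BM_ETPs carried 22990 FPKM of myeloid markers, against 10.7 FPKM of T lineage markers. One Pro-_Pre-B library held 4609 FPKM of myeloid markers, and the lowest of that group held 29.9 FPKM. In sorted bulk samples, fewer cells of a type and less RNA per cell cannot be told apart.

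Of the 88 nuclear members, 82 reached 1 FPKM in at least 2 libraries and were tested, as were all 13 mitochondrially encoded members. The 6 nuclear members not tested were Cox6c2, Cox8b, Cox8c, Ndufa11b, Ndufa4l2 and Ndufs6b, and the first 4 of these reached 1 FPKM in no library. Subunit genes were abundant. Their mean level over all libraries had a median of 217 FPKM for the nuclear members and 2817 FPKM for the mitochondrially encoded ones, against 5.69 FPKM for all 17416 genes tested. Since a call is more easily made for an abundant gene, the shares of members that passed are set beside those of all genes tested and beside those of the 1054 other genes with a mean of at least 100 FPKM.

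Summed over the nuclear members, the level was highest in DN4 and lowest in mature_myeloid, although iCD8_SP was highest when each library was scaled to an equal total. The 3 DN4 libraries summed to 34912, 32029.9 and 32611 FPKM, while the 2 mature_myeloid libraries had 9318 and 8862 FPKM. DN4 cells are thymocytes that have passed selection for a T cell receptor beta chain and are dividing, and mature myeloid cells of the marrow include granulocytes, which hold few mitochondria. The group means then ran, from high to low, through iCD8_SP at 31920 ± 4358 FPKM, BM_iETPs at 30894 ± 471, iDN4 at 29987 ± 2106, DN3 at 28551.5 ± 4370.5 and BM_ETPs at 28072 ± 3088 (mean ± SD). The middle of the order held Pro-_Pre-B, DN2, DP, CD8_SP, iCD4_SP, mature_T and Thy_ETPs, between 27641 and 24088 FPKM. Below these came iDN3 at 21889 ± 467 FPKM, then CD4_SP, iDN2, mature_B, iDP and iDN1, which ended at 19345 ± 838 FPKM. The lowest natural progenitors were HSC at 18537 ± 1335, DN1 at 17171 ± 758 and MPP at 16695 ± 1298 FPKM, with Thy_iETPs at 17402 ± 1052 FPKM among them. Of the 23 pairs of neighbours in this order, 21 overlapped in their libraries, so most steps were not larger than the spread within a group. The groups stood apart only between Thy_ETPs and iDN3 and between MPP and mature_myeloid.

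The mitochondrially encoded members summed to more than the nuclear ones in every group, and their order was another one. The highest means were in iDN3 at 135145 ± 21671 FPKM and CD4_SP at 133958 ± 20177 FPKM, both among the lower groups for the nuclear sum. BM_iETPs followed at 120047 ± 1244, mature_B at 117973 ± 15691 and DP at 116972 ± 4316 FPKM. The lowest were BM_ETPs at 49061 ± 5549, Thy_iETPs at 39588 ± 4599 and mature_myeloid at 38829 ± 2320 FPKM. All 23 neighbouring pairs overlapped. Mitochondrial messages made up between 2.75 ± 1.27% of total FPKM (mature_myeloid, 2 libraries) and 15.9 ± 1.79% (iDN3) as group means. If the deposited values were scaled to all fragments of a library, a rise in this share would lower the other genes' values. The scaling used is not given, so this cannot be told.

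**Figure D1:**
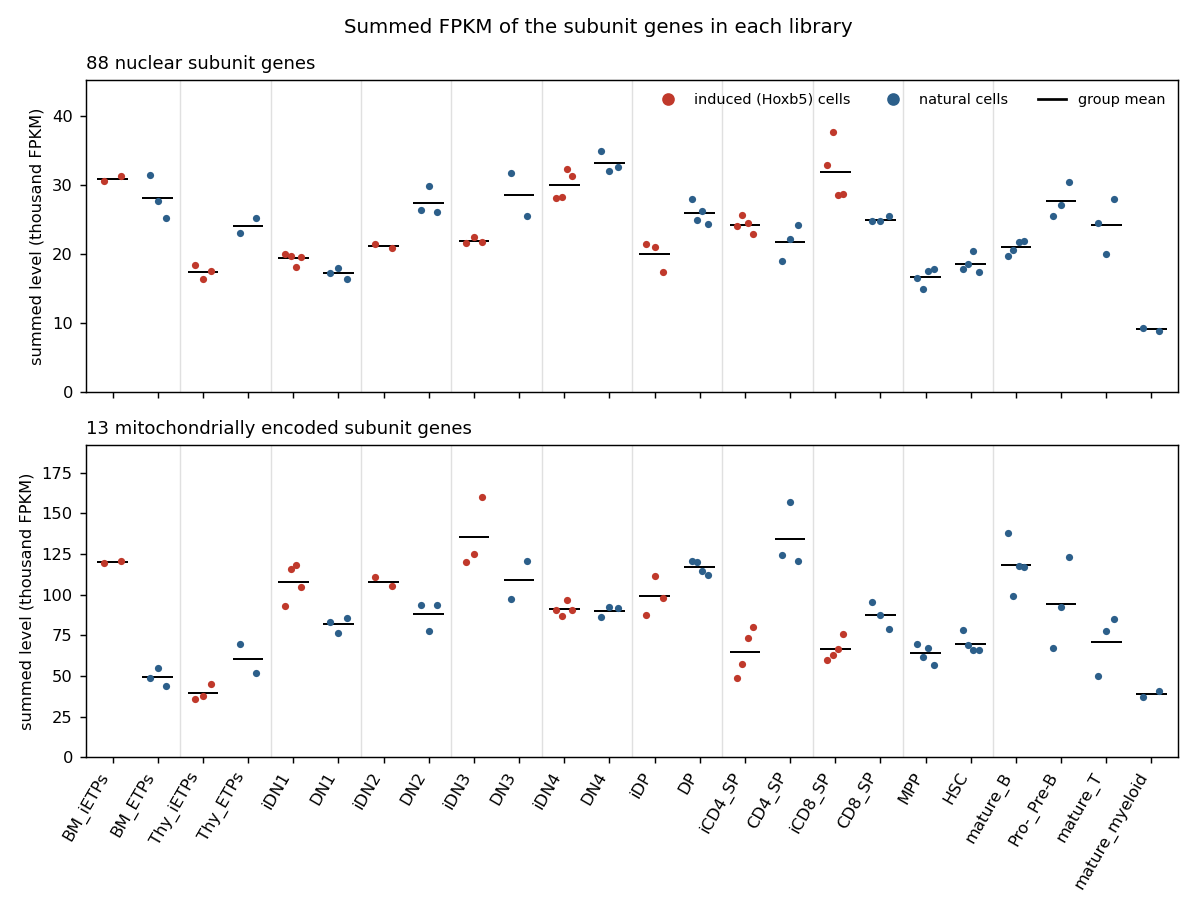
Summed FPKM of the 88 nuclear (top) and 13 mitochondrially encoded (bottom) subunit genes in each library, by group, with induced cells in red, natural cells in blue and group means as black bars. The nuclear sum is highest in DN4 (32029.9 to 34912 FPKM) and lowest in mature_myeloid (8862 and 9318 FPKM), and the mitochondrial sum is highest in iDN3 and CD4_SP.

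Across the 24 group means, the nuclear and mitochondrial sums were weakly related, with Pearson's r of 0.42 and Spearman's rho of 0.23 on log2 values. Without mature_myeloid, r was 0.15 and rho 0.13. The points share libraries and a common scaling, so this is a description. The ratio of mitochondrial to nuclear sum ran from 1.76 in BM_ETPs and 2.12 in iCD8_SP to 6.18 in iDN3 and 6.22 in CD4_SP. The summed level of 20 proliferation genes went with the nuclear sum (r 0.57, rho 0.74) more closely than with the mitochondrial sum (r 0.17, rho 0.14) over the same groups, and the part of cell division in the nuclear level was not tested.

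**Figure D2:**
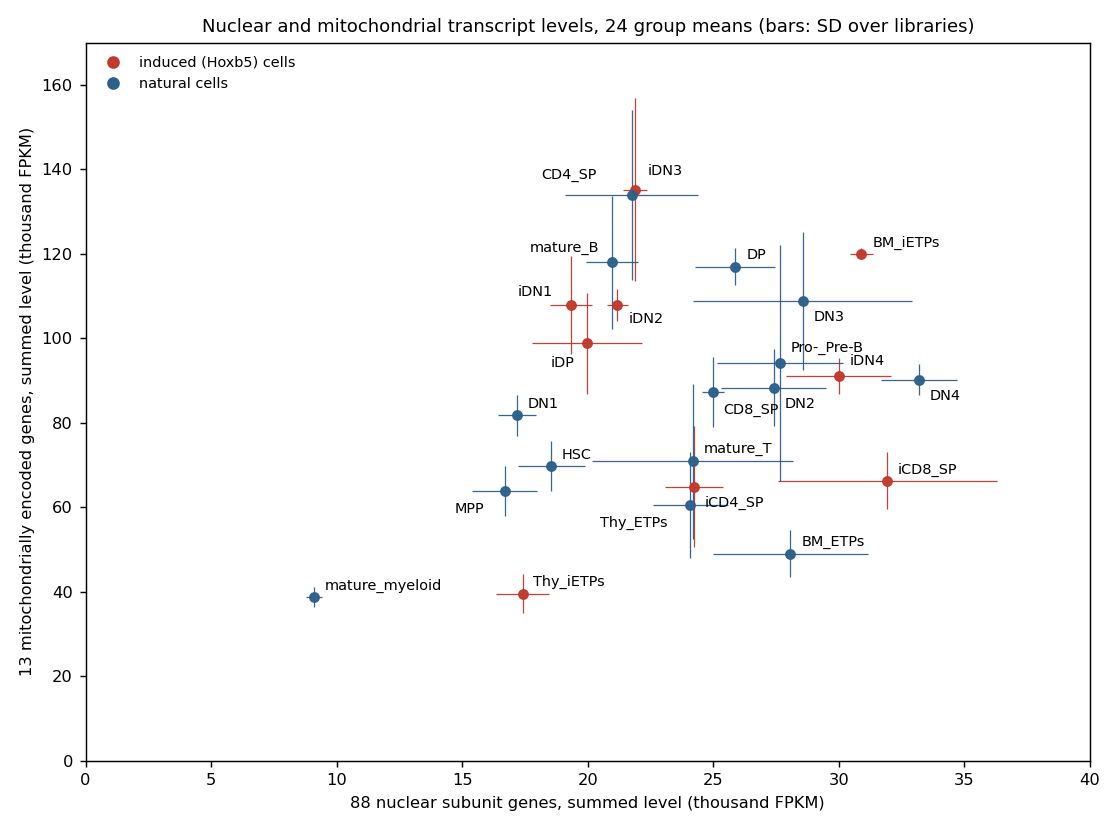
Summed mitochondrial against summed nuclear FPKM, 1 point per group mean with SD bars, induced groups in red and natural groups in blue. The points scatter (r 0.42, rho 0.23, 24 groups), and mature_myeloid lies apart at the low end of both.

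The limma F test over the 24 groups passed for 81 of 82 nuclear and 12 of 13 mitochondrially encoded members, on a background of 85.2% of all genes tested. The exceptions, Cox7b2 and mt-Nd4l, were close to 0 throughout. The 5 highest F values among nuclear members all belonged to ATP synthase. They were Atp5b (the catalytic beta subunit) at 56.3, Atp5f1 (a subunit of the stator stalk) at 52.8, Atp5g3 (one of the genes for the membrane ring subunit c) at 47.1, Atp5a1 (the alpha subunit) at 35.9 and Atp5g1 (another subunit c gene) at 31.7. Among members with a mean of at least 5 FPKM, the lowest were the complex I accessory subunits Ndufb7 at 3.45 and Ndufb4 at 3.92, the complex I iron-sulfur subunit Ndufs1 at 4.50, the complex III core protein Uqcrc2 at 4.92 and Ndufb4c at 5.23. mt-Cytb, the cytochrome b of complex III, had the highest F of the mitochondrial genes at 38.1.

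Most nuclear members followed the median profile of their own set. The Pearson correlation of each member's 24 group means with the median over nuclear members had a median of 0.783 for nuclear members, and 70 of 82 were above 0.5. For the mitochondrial members the median was 0.24, and 3 of 13 were above 0.5. The reference was made from the nuclear members themselves, which favours higher values for them in advance. It included mature_myeloid, where all nuclear complexes were low. The share above 0.5 was not counted for other abundant genes, so these values are a description. Between the highest and lowest group means the median spread was 2.03 log2 units for nuclear and 2.58 for mitochondrial members. Each nuclear complex had its lowest sum in mature_myeloid. The highest sums of complexes II, III and V were in DN4, at 960 (complex II), 3592 (complex III) and 13286 FPKM (complex V), that of complex I was 9110 FPKM in BM_iETPs, and that of complex IV was 6864 FPKM in iCD8_SP.

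**Figure D3:**
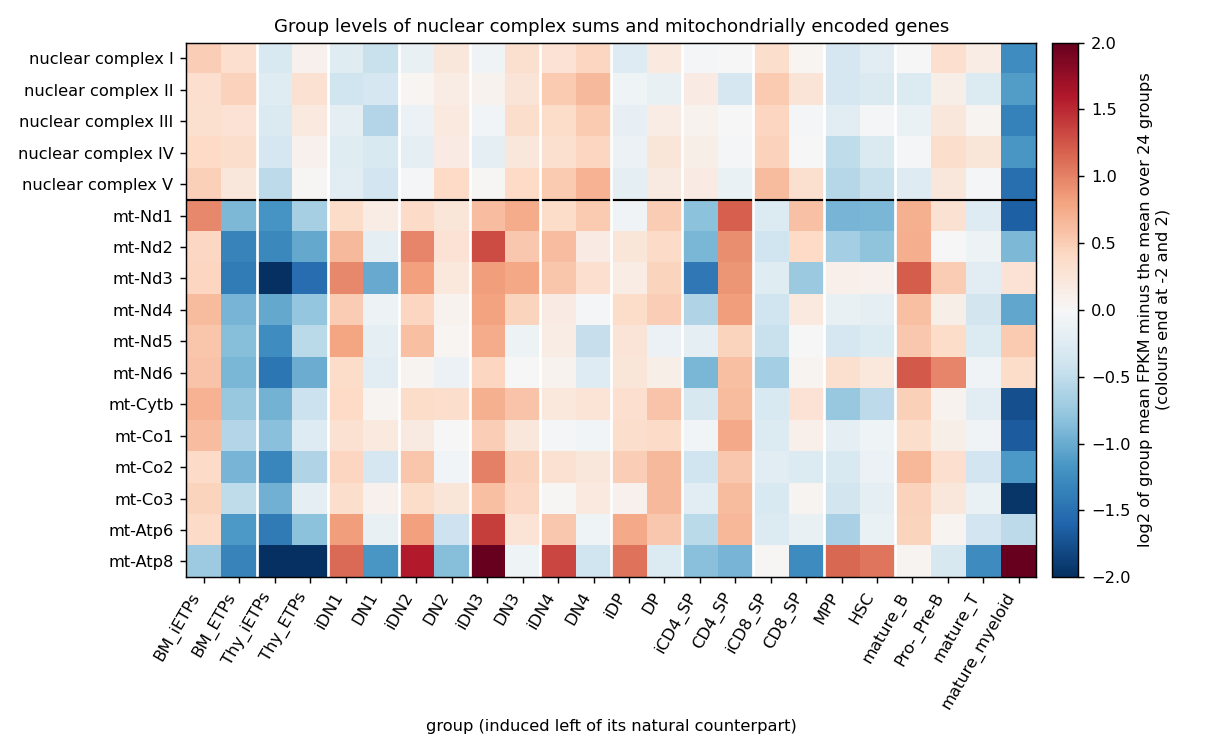
Heat map of the 5 nuclear complex sums and 12 mitochondrial genes in 24 groups, as log2 level minus the mean over groups, with colours ending at -2 and 2. The nuclear rows are alike (complexes II, III and V highest in DN4, all 5 lowest in mature_myeloid). Among the mitochondrial rows, mt-Nd1, mt-Nd4, mt-Cytb, mt-Co1 and mt-Co3 are also lowest in mature_myeloid. There mt-Nd2, mt-Co2 and mt-Atp6 are below their means without being lowest, mt-Nd3, mt-Nd5 and mt-Nd6 are above their means, and mt-Atp8 is at its highest.

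Promoter sequences are shown for 3 nuclear members, as examples from the nuclear set. Windows of 300 bases, from 250 before to 50 after a RefSeq gene start (GRCm38.p6), were found for 68 of the 88 nuclear members, 73 windows in all. The motif of NRF1, a transcription factor known for activating respiratory chain genes, was searched as the core word GCGCATGC, that of ETS factors such as the GABP complex as CCGGAAG, and that of YY1 as AAGATGGC, on both strands. NRF1 matches on opposite strands overlap where the full palindrome is present, and an ETS match and a YY1 match can share the letters AAG. NRF1 matches were in 10 member windows (13.7%), against 2.71% of all 32851 windows. ETS matches were in 16 (21.9%), against 8.86%, and YY1 matches in 10 (13.7%), against 2.75%. A match is a description of the letters and not evidence of binding. The stretches below stop before the first exon, run 5′ to 3′ on the gene's strand, and have matches in capitals. Cox6a1, the widely expressed subunit VIa of complex IV, lies on the minus strand and its stretch is chr5:115348982-115349129, with overlapping NRF1 matches on both strands, while the ETS match of its window lies outside the stretch shown. Ndufb6, an accessory subunit of complex I, lies on the minus strand (chr4:40279422-40279671), with an ETS match read on the opposite strand. Atp5b lies on the plus strand (chr10:128083057-128083272), and its window held none of these words, although its group means followed the nuclear median with r of 0.953.
Cox6a1: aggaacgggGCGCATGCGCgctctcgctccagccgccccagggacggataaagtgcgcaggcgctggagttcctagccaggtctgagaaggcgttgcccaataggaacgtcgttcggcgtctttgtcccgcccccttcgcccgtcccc
Ndufb6: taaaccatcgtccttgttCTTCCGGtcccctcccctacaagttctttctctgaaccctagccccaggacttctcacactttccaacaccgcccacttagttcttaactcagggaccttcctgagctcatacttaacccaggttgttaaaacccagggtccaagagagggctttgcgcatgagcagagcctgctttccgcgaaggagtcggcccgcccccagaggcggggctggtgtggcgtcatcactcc
Atp5b: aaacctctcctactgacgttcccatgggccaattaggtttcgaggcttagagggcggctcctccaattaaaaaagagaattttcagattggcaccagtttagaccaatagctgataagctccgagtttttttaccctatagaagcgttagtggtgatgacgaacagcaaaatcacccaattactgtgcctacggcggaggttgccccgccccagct

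A few members stood apart from the common pattern. Cox6a2, the heart and muscle form of subunit VIa, was at 0 in 32 of 75 libraries and in every library of 8 groups. Its levels were 15.8, 30.8 and 34.2 FPKM in Pro-_Pre-B and 19.3, 10.8 and 14.9 FPKM in DN1, and no library of another group passed 9.46 FPKM. Cox6b2, the testis form of subunit VIb, was highest in BM_ETPs at 41.1, 42.7 and 41.9 FPKM, and stood between 22.9 and 27.4 FPKM in HSC. It was at 0 in 9 libraries. Cox4i2, the lung form of subunit IV, which responds to low oxygen, was at 0 in 54 libraries and reached 5.56, 5.64, 4.89 and 4.06 FPKM in HSC, with 1 iCD4_SP library at 4.17 FPKM. Ndufb4c, a copy of Ndufb4 by its name, was at 0 in all 6 libraries of DN1 and CD8_SP and above 0 in the other 69. Reads of Ndufb4c and Ndufb4 may be split uncertainly between the copies. mt-Nd4l was at 0 in 71 of 75 libraries although it overlaps mt-Nd4, and mt-Atp8, which overlaps mt-Atp6, ran from 54.1 to 8827 FPKM, with both mature_myeloid libraries (6926 and 8827 FPKM) above all others. The levels of these short overlapping genes depend on how fragments were shared out, and mt-Nd6, on the opposite strand, cannot be told from antisense RNA with this unstranded kit.

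**Figure D4:**
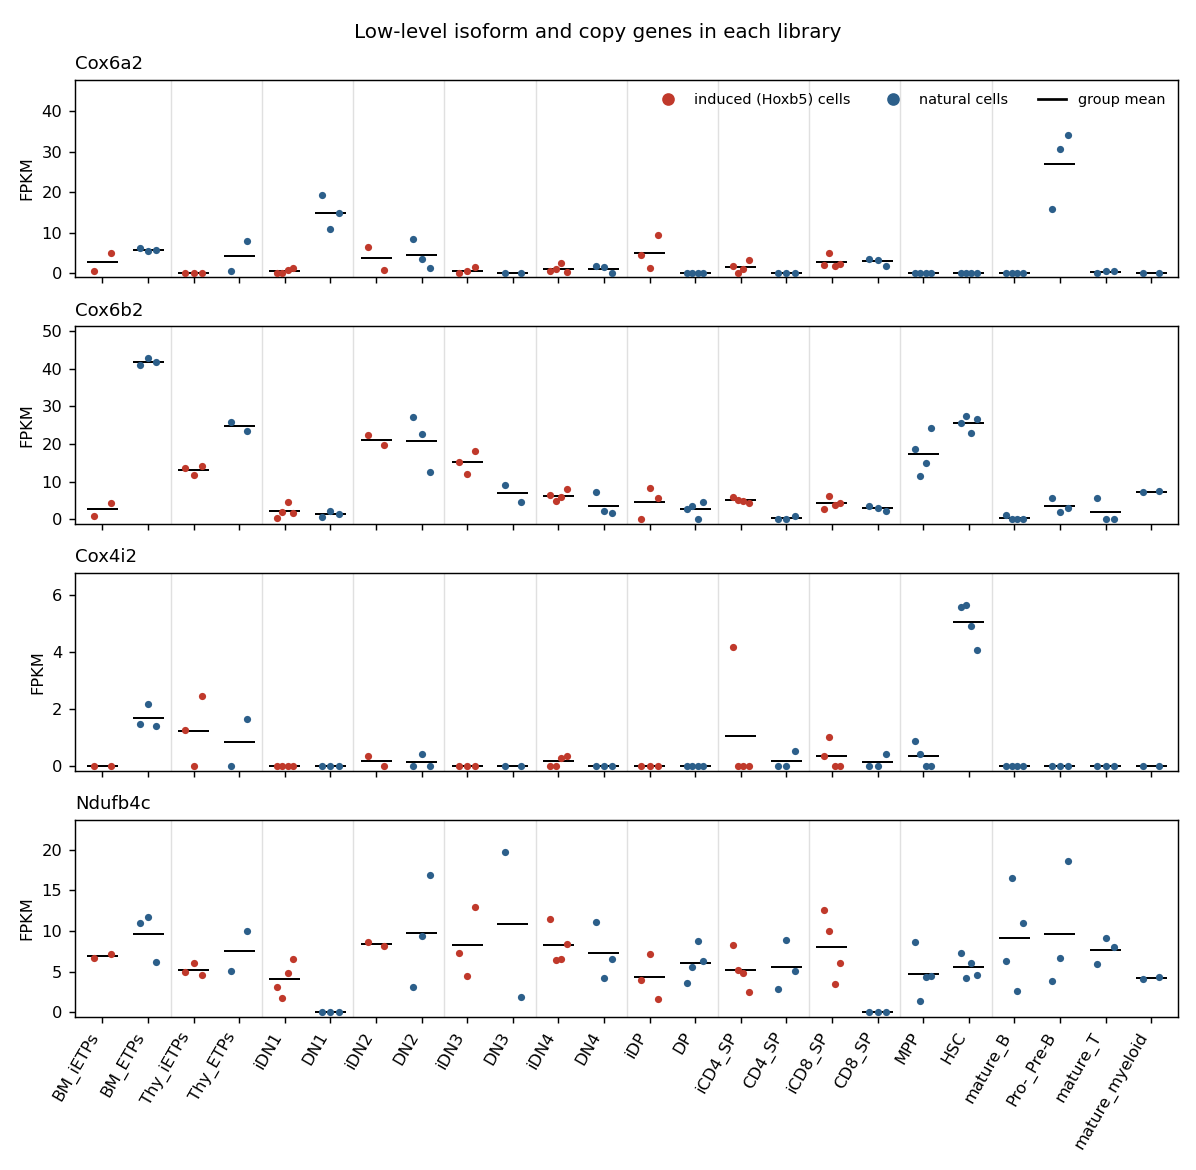
FPKM of Cox6a2, Cox6b2, Cox4i2 and Ndufb4c in each library, by group, with induced cells in red, natural cells in blue and group means as black bars. Cox6a2 is high in Pro-_Pre-B and DN1, Cox6b2 in BM_ETPs, Cox4i2 in HSC, and Ndufb4c is at 0 in the 6 libraries of DN1 and CD8_SP.

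Induced and natural cells of the same label were then compared at 9 stages, with limma on log2(FPKM + 1) and p adjusted over the 17416 genes. The median fold change of all genes was close to 0 in each comparison. That of the 1054 abundant genes ran from -0.30 in iDP against iDN4 to 0.17 in iCD4_SP against iDP. It was -0.17 in DP against DN4, -0.14 in iDP against DP, -0.12 in mature_B against Pro-_Pre-B and 0.14 in iCD8_SP against CD8_SP. The medians of the nuclear members, which are abundant, are therefore to be read against these values and not against 0 alone.

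**Figure D5:**
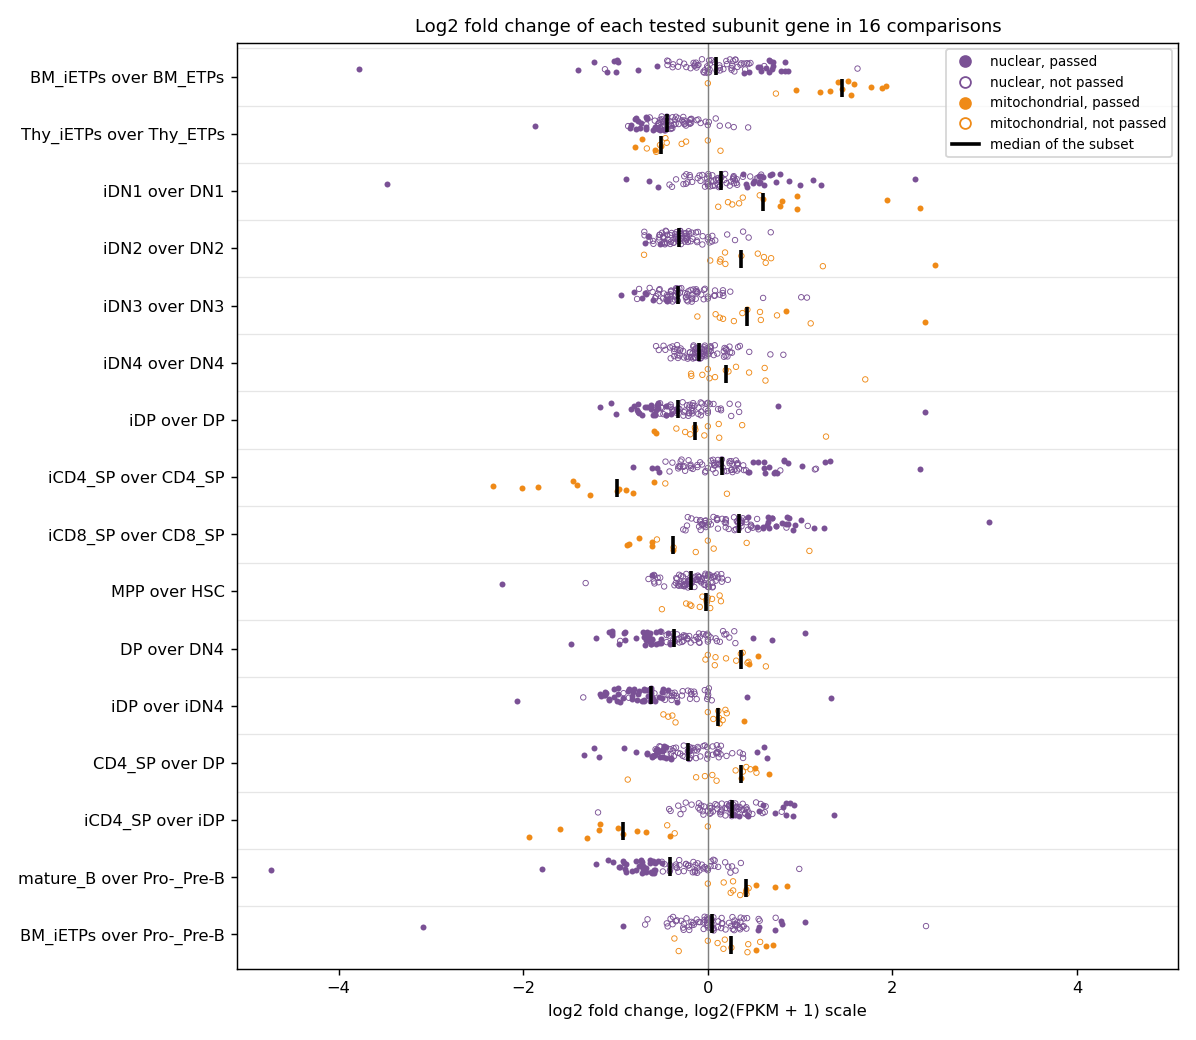
Log2 fold change of each tested subunit gene in 16 comparisons, nuclear in purple and mitochondrial in orange, filled where the adjusted p was under 0.05, with black bars for the median of each subset. The mitochondrial median is at 1.46 in BM_iETPs over BM_ETPs and at -0.99 in iCD4_SP over CD4_SP, and the nuclear median is at -0.61 in iDP over iDN4.

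BM_iETPs had much higher mitochondrial messages than BM_ETPs. Of the 13 genes, 11 rose and none fell, with a median log2 fold change of 1.46, where 14.4% of all genes tested were called higher and 16.8% lower. mt-Nd1, a core membrane subunit of complex I, had 13266 and 13920.4 FPKM in BM_iETPs, against 4071, 4269 and 2839 FPKM in BM_ETPs, and the groups did not overlap (log2 fold change 1.89 ± 0.22 SE, adjusted p 2.08e-10). mt-Cytb rose by 1.46 ± 0.15 (adjusted p 6.41e-12) and mt-Nd3 by 1.93 ± 0.39 (adjusted p 6.66e-05). The nuclear members split, with 16 higher and 10 lower and a median of 0.08. The 1054 abundant genes had 27.9% higher and 29.8% lower, so the nuclear shares of 19.5% and 12.2% were not above theirs. Higher members included Atp5k and Atp5mpl (small subunits of the ATP synthase membrane part), Ndufs4 (complex I) and Atp5j (a stalk subunit), with fold changes of 0.79 to 0.87 log2 units. Atp5g1 stood at 300.5 and 295 FPKM in BM_iETPs, against 745, 622 and 558 FPKM in BM_ETPs (-1.09 ± 0.24, adjusted p 0.00019). Cox6b2 fell by 3.78 log2 units, to a mean of 2.58 FPKM in BM_iETPs against 41.9 FPKM in BM_ETPs, and Ndufs7, an iron-sulfur subunit of complex I, by 1.23. Without BM_iETPs replicate 1, 12 nuclear members in all were called in place of 26. An equal total without mitochondrial genes gave 25 nuclear members higher and 9 lower, and quantile normalization 11 higher and 12 lower. Quantile normalization left 10 mitochondrial calls and turned mt-Co3 to -0.39. The cells differed in makeup: myeloid markers summed to 1460 FPKM in BM_iETPs and 22990 FPKM in BM_ETPs, B markers to 7836 and 80.8 FPKM, and proliferation genes to 8074 and 2392 FPKM, and their part in these differences was not tested.

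Against their own starting cells, the Pro-_Pre-B libraries, BM_iETPs differed little. Of the nuclear members, 6 rose and 2 fell (7.32% and 2.44%, background 8.1% and 7.4%, abundant genes 17.2% and 12.2%). Of the mitochondrial ones 3 rose, and the nuclear and mitochondrial medians were 0.05 and 0.26. The higher ones were led by Ndufb6 (1.05 ± 0.25, adjusted p 0.00116), Ndufb9 and Ndufa4 (0.80 each) and Atp5f1 (0.73). Atp5f1 had 888 and 702 FPKM in BM_iETPs, against 539, 440.0 and 457 FPKM in Pro-_Pre-B, with no overlap. The 2 that fell were Cox6a2 (-3.08 ± 0.57, adjusted p 3.99e-05) and Cox7a2l (-0.92 ± 0.15, adjusted p 4.27e-06). mt-Nd1, mt-Cytb and mt-Co1, the catalytic subunit of complex IV, rose by 0.71, 0.63 and 0.52. Without BM_iETPs replicate 1, 2 or Pro-_Pre-B replicate 1, the mitochondrial calls numbered 0, 1 and 1, and quantile normalization gave 6 nuclear members higher and 4 lower. This comparison shares the BM_iETPs libraries with the one above.

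Thy_iETPs had lower subunit messages than Thy_ETPs on both sides. Of the nuclear members 19 fell and none rose (23.2%, background 3.78% lower and 4.49% higher, and 12.4% lower among abundant genes), with a median of -0.45, against -0.17 for the abundant genes. Complex V gave 9 of its 17 members to these and complex I 4 of 37. Atp5g3 averaged 449 ± 39.9 FPKM in 3 Thy_iETPs libraries and 768 ± 38.1 FPKM in 2 Thy_ETPs libraries (-0.78 ± 0.16, adjusted p 0.000521). Atp5b had 1498, 1427 and 1404 FPKM in Thy_iETPs, against 1939.5 and 2086 FPKM in Thy_ETPs, and all 3 induced libraries were below both natural ones. Ndufa1, needed for assembly of the complex I membrane arm, fell by 0.83 and Sdhc, a membrane anchor of complex II, by 0.77. Of the mitochondrial genes 4 fell: mt-Co3 (-0.79), mt-Nd5 (-0.71), mt-Co1 (-0.57) and mt-Cytb (-0.50). Either equal total left 1 of these calls and quantile normalization none, with mt-Co1 at 0.064. These counts rest on few libraries. Without Thy_iETPs replicate 1 or 2 or Thy_ETPs replicate 1 or 2, the nuclear calls numbered 12, 10, 7 and 6, and with an equal total per library they numbered 8. The mitochondrial calls numbered 1 without Thy_iETPs replicate 1 or 2 and 0 without Thy_ETPs replicate 1. Proliferation genes summed to 1497 FPKM in Thy_iETPs and 3811 FPKM in Thy_ETPs (15 of 20 fell), and dendritic cell markers to 7.60 and 1412 FPKM, and neither's part was tested.

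In iDN1 against DN1 the mitochondrial messages were higher, while the share of nuclear members that rose was close to that of abundant genes. Nuclear members numbered 20 higher and 4 lower (24.4% and 4.88%, background 9.9% and 8.93%, abundant genes 22.6% and 17.6%), with a median of 0.14. Mitochondrial members numbered 7 higher and none lower (53.8%), with a median of 0.59. Atp5mpl had 487, 681, 491 and 554 FPKM in iDN1, against 229, 209 and 264 FPKM in DN1, with no overlap (1.23 ± 0.20, adjusted p 3.19e-06). Ndufa5 rose by 1.14 and Atp5k by 0.99. Complex III gave 4 of its 8 members to the higher ones. Cox6a2 fell by 3.48 ± 0.48, and the alpha subunit Atp5a1 was the one ATP synthase gene to fall (-0.54 ± 0.09). mt-Nd3 had 1585, 2915, 1785 and 2601 FPKM in iDN1, against 655, 516 and 521.5 FPKM in DN1 (1.94 ± 0.33, adjusted p 6.17e-06). Without DN1 replicate 3, 14 nuclear members passed, and without DN1 replicates 1 and 2 and DN2 replicate 2, set apart in earlier work on these data, 9 nuclear and 3 mitochondrial members did. Proliferation genes summed to 2157 FPKM in iDN1 and 1165 FPKM in DN1, dendritic markers to 40.8 and 730 FPKM, and markers of the DP stage to 353 and 78.4 FPKM, and their part was not tested.

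At the next 3 stages few members passed. In iDN2 against DN2, 3 nuclear members fell and none rose: Atp5g3 (-0.68), Ndufb5 (-0.65) and Atp5f1 (-0.51). This share of 3.66% lower was near the 3.32% of abundant genes, where all genes had 0.626% lower. Higher were 0.879% of all genes and 1.8% of abundant genes. In iDN3 against DN3, 7 fell and none rose (8.54% lower, background 1.19% lower and 2.35% higher, abundant genes 3.98% and 3.7%). The falls were led by the complex I accessory subunits Ndufa2 (-0.94) and Ndufb8 (-0.80), then Cox6a1 (-0.72) and Ndufb5 (-0.68). Atp5f1 had 497 and 485 FPKM in iDN2, against 692, 707 and 705 FPKM in DN2, and 547, 451 and 487 FPKM in iDN3, against 742 and 604 FPKM in DN3, with no overlap at either stage. The nuclear medians were -0.31 in iDN2 and -0.33 in iDN3, and the mitochondrial medians 0.36 and 0.43. In iDN4 against DN4 no member passed, on backgrounds of 0.39% higher and 0.35% lower (abundant genes 1.23% and 1.14%). There limma gave 9 nuclear and 4 mitochondrial members at an unadjusted p under 0.05. With only those groups in the fit, no nuclear member passed in iDN2 or iDN3, and 8 nuclear and 5 mitochondrial members passed in iDN4. An equal total per library left no nuclear call in iDN2 and 1 in iDN3. Without iDN3 replicate 1, 2 or 3 or DN3 replicate 1, the iDN3 nuclear calls numbered 2, 2, 1 and 1. The iDN2 nuclear calls numbered 0 without iDN2 replicate 2 and 1 without iDN2 replicate 1 or DN2 replicate 2 or 3.

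mt-Atp8, the small ATP synthase subunit that shares bases with mt-Atp6, was high in induced cells along the double negative stages. It stood at 712, 947, 930.3 and 1606 FPKM in iDN1, against 274, 134 and 229 FPKM in DN1. It stood at 1183 and 1685 FPKM in iDN2, against 292, 179 and 317 FPKM in DN2. In iDN3 it had 2065, 2298 and 2296 FPKM, against 341 and 553 FPKM in DN3, and in iDN4 1471, 1398, 901 and 1044 FPKM, against 397, 306 and 386 FPKM in DN4. No induced library overlapped its natural group at these stages. The fold changes were 2.30 (adjusted p 0.00014), 2.46 (0.00653), 2.35 (0.008) and 1.71 (0.0652), so that of iDN4 missed the threshold. In iDP mt-Atp8 averaged 1005 ± 507 FPKM, against 395 ± 123 FPKM in DP, also without overlap and without passing (1.28, adjusted p 0.0664). Such levels were not confined to induced cells, as natural HSC and MPP averaged 1003 and 1052 FPKM. The one mitochondrial call of iDN2 was lost without iDN2 replicate 2 or DN2 replicate 2, and the iDN3 calls, mt-Atp8 and mt-Nd5, numbered 1 without iDN3 replicate 1 or 3 and 0 without DN3 replicate 1. mt-Atp6 itself passed in iDN1 (0.97, adjusted p 0.015), and not in iDN2 (1.25, adjusted p 0.06) or iDN3 (1.11, adjusted p 0.0676).

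Nuclear subunit messages were lower in iDP than in DP cells. Of the nuclear members 26 fell and 2 rose (31.7% and 2.44%, background 5.53% and 4.83%, abundant genes 17.3% and 5.69%), with a median of -0.32. The falls included 14 of 37 complex I members and 8 of 17 complex V members, and no complex II member. Uqcrfs1, the Rieske iron-sulfur protein of complex III, had 188, 227 and 190.1 FPKM in iDP, against 492, 436, 468 and 306 FPKM in DP. All iDP libraries were below all DP libraries (-1.05 ± 0.15, adjusted p 5.02e-07). Ndufb8 fell by 1.17 ± 0.18, Atp5l, which holds ATP synthase dimers together, by 1.00 ± 0.18, and Ndufa7 by 0.83 ± 0.17. Ndufs1 rose by 0.76, and Cox6a2, at 0 in all 4 DP libraries, had 4.38, 1.35 and 9.46 FPKM in iDP. Mitochondrial genes fell in 2 cases, mt-Nd1 (-0.58) and mt-Co3 (-0.56), with a median of -0.13. The nuclear calls depended on the scaling: an equal total per library left 3 higher and 7 lower, quantile normalization 3 higher and 14 lower, and a fit of the DP groups alone 5 in all. With an equal total 1 mitochondrial gene was higher and none lower, and with quantile normalization 2 were higher and none lower. Without iDP replicate 3, 16 nuclear members passed. The mitochondrial calls numbered 0 without DP replicate 1 and 1 without any other single library of iDP or DP.

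The mitochondrial messages were lower in iCD4_SP than in CD4_SP, while the share of nuclear members that rose was below that of abundant genes. In iCD4_SP against CD4_SP, 11 of 13 mitochondrial genes fell and none rose (background 12.4% lower and 14% higher), with a median of -0.99. mt-Nd1 had 2992, 3531, 3926 and 5413 FPKM in iCD4_SP, against 15718, 19311 and 12646 FPKM in CD4_SP, and every induced library was below every natural one (-2.02 ± 0.18, adjusted p 2.22e-13). mt-Nd3 fell by 2.33, mt-Nd2 by 1.84 and mt-Cytb by 0.96. Of the nuclear members 18 rose and 4 fell (22% and 4.88%), with a median of 0.16, where the abundant genes had 27.4% higher and 25.3% lower. Sdhc had 83.5, 124, 120.5 and 112 FPKM in iCD4_SP, against 48.5, 33.3 and 48.9 FPKM in CD4_SP (1.32 ± 0.20, adjusted p 4.80e-07). Sdhd, the other membrane anchor of complex II, rose by 0.82 and the complex I subunit Ndufa8 by 1.02. Cox6b2 rose by 2.30, with CD4_SP at 0, 0 and 0.831 FPKM. Ndufs8 rose by 1.27, yet its CD4_SP libraries stood at 44.2, 30.4 and 192 FPKM and overlapped iCD4_SP. The falls were Ndufa3 (-0.82), Cox7b (-0.60), Ndufa1 (-0.55) and Atp5e (-0.52). With an equal total per library 41 nuclear members were higher and 1 lower, and with an equal total without mitochondrial genes 32 were higher and 1 lower. Quantile normalization left 6 mitochondrial calls and put mt-Co1 at 0.065. Proliferation genes summed to 6103 FPKM in iCD4_SP and 1424 FPKM in CD4_SP (19 of 20 rose), and DP stage markers to 1813 and 172 FPKM, and their part was not tested.

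At the CD8 single positive stage, nuclear members were higher and mitochondrial ones lower in iCD8_SP than in CD8_SP. Nuclear members numbered 23 higher and none lower (28%, background 5.63% higher and 5.01% lower, abundant genes 19.3% higher), with a median of 0.34, and mitochondrial ones 6 lower and none higher, with a median of -0.38. Atp5k had 157, 233, 144 and 173 FPKM in iCD8_SP, against 72.2, 80.2 and 64.3 FPKM in CD8_SP, without overlap (1.26 ± 0.20, adjusted p 2.89e-06). Atp5mpl rose by 1.15, the complex I subunit Ndufs5 by 1.01 and Ndufa4 by 0.87. Of complex III, 5 of 8 members rose, and of complex IV 6 of 16. Ndufb4c had 12.6, 10.05, 3.48 and 6.03 FPKM in iCD8_SP and was listed at 0 in CD8_SP. mt-Nd1 fell by 0.88 ± 0.18 (adjusted p 0.00038) and mt-Nd2 by 0.85 ± 0.21, although libraries of mt-Nd2 overlapped. Without iCD8_SP replicate 2 or CD8_SP replicate 2, 13 and 15 nuclear members passed, and without CD8_SP replicate 1 or 2, 2 and 3 mitochondrial members did. An equal total without mitochondrial genes gave 15 nuclear members higher and 2 lower, and quantile normalization 13 higher and 5 lower. Proliferation genes summed to 7168 FPKM in iCD8_SP and 5016 FPKM in CD8_SP, and dendritic markers to 22.7 and 252 FPKM, and their part was not tested.

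Between stages, nuclear subunits fell at the step into the double positive state in a share near that of abundant genes. DP against DN4 had 32 nuclear members lower and 3 higher (39% and 3.66%, background 12.8% and 11.8%, abundant genes 35.2% and 19.7%), with a median of -0.37. Atp5g1 had 147, 143, 269 and 166 FPKM in DP, against 557, 454 and 473 FPKM in DN4 (-1.49 ± 0.20, adjusted p 2.47e-08). Ndufa4 fell by 1.21, Sdhd by 1.07, Ndufv2 (an iron-sulfur subunit of complex I) by 1.04 and Atp5b by 0.96, to 1992 ± 279 FPKM in 4 DP libraries against 3845 ± 138 FPKM in 3 DN4 libraries. All 4 complex II members fell. Ndufv3 (1.05), Cox7a2l (0.70) and Ndufa3 (0.49) rose, as did mt-Nd4 (0.54) and mt-Co1 (0.45), with a mitochondrial median of 0.36. Cox7a2l had 470.1, 469, 494 and 446 FPKM in DP, against 319, 271 and 281 FPKM in DN4, with no overlap. An equal total without mitochondrial genes gave 15 nuclear members lower and 7 higher, and quantile normalization 28 lower and 8 higher. The mitochondrial calls numbered 4 under each of these scalings and with an equal total per library, all higher, and 8 in a fit of DP and DN4 alone. Without DN4 replicate 1 or 2, 1 mitochondrial member passed.

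The same step among induced cells, iDP against iDN4, had 48 nuclear members lower and 2 higher (58.5% and 2.44%, background 10.4% and 9.2%, abundant genes 40% and 15.5%), with a median of -0.61. The abundant genes thus also fell more often than rose at this step in both sources. Of complex V 13 of 17 members fell, of complex III 7 of 8, and of complex II all 4. Atp5g1 had 110.3, 116 and 93.5 FPKM in iDP, against 450.4, 404, 488 and 451 FPKM in iDN4 (-2.06 ± 0.20, adjusted p 3.22e-12), without overlap. Ndufb2 fell by 1.17, Ndufa12 by 1.16 and Ndufa4 by 1.12. The 2 that rose were Cox6a2 (1.34) and Cox7a2l (0.43), both with overlapping libraries, and mt-Co1 rose by 0.39, a call that was lost without iDP replicate 1 or 2. An equal total per library left 32 nuclear calls in all, and an equal total without mitochondrial genes 26.

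Both steps called 29 of the nuclear members lower, which is 90.6% of the natural list and 60.4% of the induced one. Of the abundant genes, 326 were lower in both, which is 87.9% of their natural list and 77.3% of their induced one. Of 82 tested members, 64 had a lower fold change in the induced step, and the median difference of the steps was -0.21. The abundant genes leaned the same way, with a median of -0.09, and the number of them that were lower was not counted. The difference of the steps was tested directly and passed for 1 nuclear member (1.22%), Uqcrfs1 (-0.90 ± 0.21, adjusted p 0.0151). The background was 0.597% lower and 0.5% higher, and that of abundant genes 1.42% and 0.19%. Uqcrfs1 stood at 324, 281, 312 and 319 FPKM in iDN4 and 366, 357 and 309.6 FPKM in DN4, so the groups overlapped at that stage, unlike iDP and DP. The call was lost under both equal-total scalings and in a fit of these 4 groups alone, and 3 nuclear members passed without iDN4 replicate 1 or DP replicate 4, and 2 without iDP replicate 1 or 2 or DP replicate 2 or 3. Proliferation genes summed to 4104 FPKM in iDP and 5521 FPKM in iDN4, and to 4696 FPKM in DP and 5632 FPKM in DN4, and their part was not tested.

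At the next natural step the nuclear shares were near those of abundant genes for falls and below them for rises. CD4_SP against DP had 24 nuclear members lower and 3 higher (29.3% and 3.66%, background 13.5% and 13.2%, abundant genes 25.9% and 26.9%), with a median of -0.21. Atp5h, a stalk subunit of ATP synthase, had 412, 553 and 623 FPKM in CD4_SP, against 1312, 1248, 1046 and 1131 FPKM in DP (-1.17 ± 0.14, adjusted p 2.36e-10), a clear gap. Ndufs5 fell by 0.90, while Atp5e (0.64), Ndufv2 (0.61) and Ndufa4 (0.54) rose. Only 12 of the 27 nuclear calls had no overlap of libraries, and Ndufv2 was among those that overlapped. mt-Nd1 (0.66), mt-Nd5 (0.51) and mt-Co1 (0.36) rose too, with overlapping libraries for mt-Nd5. Without CD4_SP replicate 2, 16 nuclear and no mitochondrial members passed, and without CD4_SP replicate 3, 6 mitochondrial ones did, and without DP replicate 3 or 4, 1. A fit of these groups alone left 4 nuclear calls, an equal total without mitochondrial genes gave 37 lower and none higher, and quantile normalization 16 lower and 6 higher, with 1 mitochondrial gene lower and none higher. In this step 19 of 20 proliferation genes fell.

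In iCD4_SP against iDP the mitochondrial messages fell, while fewer nuclear members than abundant genes rose, as a share. Nuclear members numbered 14 higher and none lower (17.1%, background 5.9% higher and 3.96% lower, abundant genes 25.8% higher), with a median of 0.26, and mitochondrial ones 10 lower and none higher (76.9%), with a median of -0.92. Atp5g1 had 271, 342, 300.3 and 206 FPKM in iCD4_SP, against 110.3, 116 and 93.5 FPKM in iDP (1.36 ± 0.20, adjusted p 1.13e-06). Ndufs7 rose by 0.94, Atp5d (a subunit of the ATP synthase central stalk) by 0.92 and Uqcrc1 (a complex III core protein) by 0.89. mt-Atp8 fell by 1.94 and mt-Nd3 by 1.60. The fit of these groups alone left 7 nuclear calls, and an equal total without mitochondrial genes gave 8 higher and 3 lower, and quantile normalization 11 higher and 2 lower. Quantile normalization left 9 mitochondrial calls, all lower, with mt-Co1 at 0.19, and the fit of these groups alone 7. The difference between the natural and induced CD4 steps was not tested, and these comparisons share the DP, iDP, CD4_SP and iCD4_SP libraries with those above.

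Few members passed between stem cells and multipotent progenitors, although the nuclear members leaned lower in MPP. In MPP against HSC, 2 nuclear members fell and none rose (2.44% lower, background 5.01% lower and 3.12% higher, abundant genes 4.36% and 7.69%). The nuclear median was -0.18, against -0.003 for the abundant genes, with 63 nuclear fold changes negative and 18 positive. No mitochondrial member passed, and the mitochondrial median was -0.016. At an unadjusted p under 0.05, limma gave 16 nuclear members and 1 mitochondrial member. Cox4i2 stood at 0.875, 0.429, 0 and 0 FPKM in MPP, against the HSC values given above (-2.23 ± 0.30, adjusted p 2.77e-08). Uqcrb, a complex III subunit, had 139, 127, 161 and 139.7 FPKM in MPP, against 233, 188, 292 and 168 FPKM in HSC (-0.61 ± 0.20, adjusted p 0.0412). With quantile normalization 9 nuclear members passed. Without HSC replicate 3 or MPP replicate 1 or 2, 1 passed, and without HSC replicate 4, 4 did.

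Mature_B cells, which hardly divide, had lower nuclear subunit messages than Pro-_Pre-B cells. Of the nuclear members 36 fell and none rose (43.9%, background 13.4% lower and 11.5% higher, abundant genes 33.3% lower), with a median of -0.41, and 3 of the 4 complex II members were among them. Ndufb8 had 236, 250.3, 271 and 378 FPKM in mature_B, against 590, 682 and 675 FPKM in Pro-_Pre-B (-1.21 ± 0.18, adjusted p 3.40e-07). Uqcrc1 fell by 1.09 ± 0.18 and Sdhc by 0.92 ± 0.20. Cox6a2 was at 0 in all 4 mature_B libraries, against the Pro-_Pre-B values given above (adjusted p 2.76e-12). Mitochondrial genes rose in 4 cases, mt-Nd3 (0.85), mt-Nd2 (0.73), mt-Nd4 (0.52) and mt-Cytb (0.41), and only mt-Nd2 had no overlap. Those calls were lost with an equal total per library or quantile normalization, under which mt-Nd4 and mt-Cytb turned to -0.018 and -0.17. Without Pro-_Pre-B replicate 1 or 4, 0 and 7 mitochondrial members passed, and without mature_B replicate 1 or 3, 1 and 2 did. An equal total per library raised the nuclear calls to 57. All 20 proliferation genes fell, to a sum of 454 FPKM in mature_B against 4262 FPKM in Pro-_Pre-B, and their part was not tested.

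Other genes of the same organelle were counted from lists set out beside the members, and the background shares given above for each comparison apply to them. Mitochondrial ribosomal proteins, which translate the mitochondrial messages, had 36 of 77 lower and none higher in DP against DN4 (46.8%, against 12.8% of all genes and 35.2% of abundant genes). In iDP against iDN4 38 fell and none rose (49.4%, against 10.4% and 40%). In mature_B against Pro-_Pre-B 25 fell and 2 rose (32.5% lower, against 13.4% and 33.3%), and in iCD4_SP against CD4_SP 18 rose and 3 fell (23.4% higher, against 14% and 27.4%), neither above the abundant share. Of 16 citric acid cycle enzymes, which feed electrons to the chain, 8 fell in DP against DN4 (50%), 9 in iDP against iDN4 (56.2%) and 6 in mature_B against Pro-_Pre-B (37.5%), and none rose. All 7 genes of the list of electron carriers and ATP export fell in DP against DN4, and 6 of 7 in iDP against iDN4. Cycs, the cytochrome c that carries electrons from complex III to complex IV, fell by 0.88 ± 0.23 in DP against DN4 (adjusted p 0.00264) and by 1.17 ± 0.23 in iDP against iDN4 (adjusted p 8.42e-05). Glycolysis genes, the other route to ATP, had 16 of 22 lower and 1 higher in BM_iETPs against BM_ETPs (72.7% lower, against 16.8% of all genes and 29.8% of abundant genes) and 12 lower and 1 higher in DP against DN4 (54.5% lower). In CD4_SP against DP 9 of them rose and 3 fell (40.9% higher, against 13.2% and 26.9%).

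Regulators did not move as one. Nrf1 rose in DP against DN4 (0.63 ± 0.18, adjusted p 0.00709) and fell in CD4_SP against DP (-1.25 ± 0.18, adjusted p 1.87e-07). Tfam, which packages and transcribes mitochondrial DNA, fell in DP against DN4 by 0.97 ± 0.26 (adjusted p 0.00382), and so did Lrpprc, which stabilizes mitochondrial messages (-1.06 ± 0.27, adjusted p 0.00232). In iCD4_SP against CD4_SP, where the mitochondrial messages fell, Tfam rose by 1.05 ± 0.26 (adjusted p 0.00151). Nrf1 (0.87) and Gabpb1 (1.17) rose there too, Yy1 did not pass (-0.41), and Mterf3 (-1.29) and Polg2 (-1.13) fell. Yy1 rose by 1.29 ± 0.23 in BM_iETPs against BM_ETPs (adjusted p 6.25e-06). Gabpa (1.18, adjusted p 0.0346) and Nrf1 (0.58, adjusted p 0.0387) rose with it, while Twnk (-1.65), Esrra (-1.55) and Pprc1 (-1.41) of the same list fell. Ppargc1a, a coactivator of mitochondrial genes in muscle and fat, passed in iDN1 against DN1 (0.69 ± 0.23, adjusted p 0.024) and in no other of the comparisons above. Its log2 difference was 0 in DP against DN4, iDP against DP and iCD4_SP against CD4_SP, as for a gene at 0 FPKM in both groups. The iDN1 call may therefore lie near the floor.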

How the data were processed

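RNA of 76 mouse libraries in 24 groups was used. The authors deposited FPKM values per gene, made with bcl2fastq, TopHat, Cufflinks 2.2.1 and Cuffnorm on build NCBIM37, per the submitters' processing notes. Their parameters, annotation and Cuffnorm scaling are not given in the sources used here. Symbols came from a GRCm38 annotation and were found for 32916 IDs (86.7%). Pro-_Pre-B replicate 3, a copy of replicate 1, was left out, which left 75 libraries.

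Depth was read from the spacing of low FPKM values of 4277 single-transcript genes of at least 1000 bases. Of these values, 71.9% to 89.1% lay within 0.2 of a whole number of fragments, so the table was not turned into counts. Values were transformed as log2(FPKM + 1), and fold changes on that scale understate those of low genes. A gene was tested if 2 or more libraries showed it at 1 FPKM or above, which left 17416. One mean per group was fitted over all groups by limma (version 3.58.1, R 4.3.3), with a trended, robust prior variance and 51 residual degrees of freedom, two-sided, with Benjamini-Hochberg adjustment over all genes of a comparison and a threshold of 0.05. The fit was tested on simulated data. Sums and correlations were made with pandas 2.3.3, numpy 2.4.6 and scipy 1.17.1 under Python 3.11.15, and figures with matplotlib 3.10.9. Sums carry no test.

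The genes named were all mitochondrial members, the 4 highest and 4 lowest nuclear fold changes per comparison among those that passed, the 5 highest and 5 lowest F values, isoform sets, Sdh genes, members never at 1 FPKM, and a few regulators. Atp5b, Atp5f1 and the other F-ranked genes could be cited in any comparison. The members, lists, comparisons and rules were chosen with earlier results of these data known. Promoter sequences are from RefSeq (GRCm38.p6), not the authors' build, and the 3 shown were picked after their values were seen. A longer NRF1 word was searched first and replaced by its core.

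Alternatives were a pseudocount of 0.1, no low-value filter, equal totals with and without mitochondrial genes, quantile normalization, a replicate block, only the compared groups, a set of 3 libraries left out, and each library left out.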

Additional observations from a re-analysis of the deposited data

Results flagged for a closer look

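In 8 of 158 tested combinations of a member and a group of 4 libraries, 1 library lay far from the other 3, and chance alone gives about 1 in 20. The value of that library was 3026 FPKM for mt-Nd2 in iDN1 (the others from 4146 to 4269), 9.59 FPKM for Cox7a1 in iDN4 (2.88 to 3.71), 954 FPKM for Atp5g3 in iCD4_SP (1159 to 1187) and 18679.5 FPKM for mt-Co1 in iCD8_SP (15984 to 16388). It was 5.04 FPKM for Cox6a2 in iCD8_SP (1.84 to 2.27), 1487 FPKM for mt-Nd5 in mature_B (1161 to 1211), 1849.6 FPKM for mt-Atp6 in DP (2140.4 to 2175) and 23764 FPKM for mt-Co2 in DP (19026 to 19695).

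The step into the double positive state differed between induced and natural cells for Uqcrfs1, by -0.90 log2 units, in limma's test of the difference. It was 1 call among 82 nuclear members (1.22%). The background was 0.597% lower and 0.5% higher over all genes, and 1.42% and 0.19% among abundant genes. The call was lost under both equal-total scalings and in a fit of these 4 groups alone.

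The induced over natural ratio of summed levels went in opposite directions at different stages, with no overlap of libraries at the stages given here. For the nuclear sum it was 1.13 in iDN1 and 1.28 in iCD8_SP, and 0.722 in Thy_iETPs, 0.773 in iDN2, 0.767 in iDN3 and 0.772 in iDP. For the mitochondrial sum it was 2.45 in BM_iETPs, 1.32 in iDN1 and 1.22 in iDN2, and 0.654 in Thy_iETPs, 0.845 in iDP, 0.484 in iCD4_SP and 0.759 in iCD8_SP. The difference between stages was not tested for these sums.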

How the results depend on the processing

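Counts of members called are given here as nuclear or mitochondrial calls. With an equal total per library, nuclear calls were 8 in Thy_iETPs against Thy_ETPs, 0 in iDN2 against DN2, 1 in iDN3 against DN3, 10 in iDP against DP, 42 in iCD4_SP against CD4_SP, 1 in MPP against HSC, 32 in iDP against iDN4, 57 in mature_B against Pro-_Pre-B and 0 in the difference of steps, and mitochondrial calls were 1, 2 and 1 in Thy_iETPs, iDN2 and iDN4, 1 in iDP against DP, 4 in DP against DN4, 1 in CD4_SP against DP and 0 in mature_B. With an equal total without mitochondrial genes, nuclear calls were 0 in iDN2, 1 in iDN3, 12 in iDP against DP, 1 in MPP, 22 in DP against DN4, 26 in iDP against iDN4, 58 in mature_B and 0 in the difference of steps, and mitochondrial calls 1 in Thy_iETPs, 2 in iDN2, 1 in iDP against DP, 4 in DP against DN4, 0 in CD4_SP against DP and 0 in mature_B. With quantile normalization, nuclear calls were 1 in iDN2, 1 in iDN3, 17 in iDP against DP and 9 in MPP, and mitochondrial calls 0 in Thy_iETPs, 3 in iDN2, 1 in iDN4, 6 in iCD4_SP against CD4_SP, 4 in DP against DN4, 4 in iDP against iDN4, 1 in CD4_SP against DP, 0 in mature_B and 1 in BM_iETPs against Pro-_Pre-B. With only the compared groups in the fit, nuclear calls were 0 in iDN2, 0 in iDN3, 8 in iDN4, 5 in iDP against DP, 4 in CD4_SP against DP, 7 in iCD4_SP against iDP and 0 in the difference of steps, and mitochondrial calls 3, 1 and 5 in iDN2, iDN3 and iDN4, 8 in DP against DN4, 2 in iDP against iDN4, 1 in mature_B and 0 in BM_iETPs against Pro-_Pre-B. A pseudocount of 0.1 gave 1 nuclear call in MPP. Without DN1 replicates 1 and 2 and DN2 replicate 2, iDN1 had 9 nuclear and 3 mitochondrial calls, and iDN2 1 and 0. The cause of these shifts was not tested.

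Replicate numbers did not pair the libraries: of 41 same-numbered pairs in 15 comparisons, 1 had a correlation over 0.1 (range -0.04 to 0.13). A replicate block gave 2 mitochondrial calls in iDN2, and nuclear calls of 1 in iDN4, 6 in MPP and 2 in the difference of steps.

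Leaving out single libraries gave nuclear calls of 12 to 24 in BM_iETPs against BM_ETPs, 6 to 15 in Thy_iETPs, 14 to 25 in iDN1, 0 to 2 in iDN2, 1 to 8 in iDN3, 0 in iDN4, 16 to 27 in iDP against DP, 16 to 26 in iCD4_SP against CD4_SP and 13 to 28 in iCD8_SP. They were 1 to 4 in MPP, 26 to 34 in DP against DN4, 37 to 49 in iDP against iDN4, 16 to 29 in CD4_SP against DP, 10 to 15 in iCD4_SP against iDP, 29 to 36 in mature_B, 6 to 10 in BM_iETPs against Pro-_Pre-B and 1 to 3 in the difference of steps. Mitochondrial calls were 11 in BM_iETPs against BM_ETPs, 0 to 3 in Thy_iETPs, 5 to 9 in iDN1, 0 to 1 in iDN2, 0 to 2 in iDN3, 0 in iDN4, 0 to 1 in iDP against DP, 10 to 11 in iCD4_SP against CD4_SP, 2 to 7 in iCD8_SP and 0 in MPP. They were 1 to 2 in DP against DN4, 0 to 1 in iDP against iDN4, 0 to 6 in CD4_SP against DP, 7 to 10 in iCD4_SP against iDP, 0 to 7 in mature_B and 0 to 4 in BM_iETPs against Pro-_Pre-B.

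Of 149 single-gene results, 70 kept their direction and call in all alternatives, 79 lost the call in some and 6 changed sign. The sign changes came with quantile normalization: mt-Co3 was -0.39 in BM_iETPs against BM_ETPs, mt-Co1 was 0.064 in Thy_iETPs, 0.065 in iCD4_SP against CD4_SP and 0.19 in iCD4_SP against iDP, and mt-Nd4 was -0.018 and mt-Cytb -0.17 in mature_B. That method gives each library the same set of values, which leaves the most abundant genes little room to differ. For such genes it therefore cannot decide the direction of a difference. FPKM carry no measure of RNA per cell, so levels per cell could not be given. Depth of 0.977 to 12.3 fragments per FPKM and kilobase limits the members near 1 FPKM, such as Cox4i2 and Cox6a2.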
